A study of Mus musculus with 6 samples.

Results

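DNA transposon fossils are the worn copies of elements that once moved by cut and paste, with a transposase that excised the element and inserted it elsewhere. No copy is known to move in the mouse today, whereas LINE1 and several endogenous retroviruses still can. Copies lie in introns, in untranslated regions and between genes, so reads of 1 name can come from many host transcripts. They were taken here by name from the repeat table, as names that begin with Charlie, Tigger, URR1, Cheshire, Kanga, Looper, Zaphod, Arthur or Zombi. The rule found 71 of 1217 repeat names, and serves as an immobile set beside the retrotransposons. The Charlie stem held 34 names, Tigger 19, Kanga 7, Arthur 4, URR1, Zaphod and Cheshire 2 each, and Looper 1, while 0 names began with Zombi. Charlie, URR1, Cheshire, Zaphod and Arthur belong to the hAT superfamily, Tigger and Kanga to Tc1/mariner, and Looper to piggyBac. URR1 is known from rodents only.

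The cells were E14Tg2A, a single line of mouse embryonic stem cells, kept in serum with leukaemia inhibitory factor. One arm received 5 nmol of an antisense oligonucleotide (ASO), labelled LINE1 ASO, by nucleofection, and the other 5 nmol of the control labelled RC ASO. After 48 h, 300000 cells per sample were sorted by the fluorophore Lissamine and their mRNA was sequenced, with 3 libraries in each arm. The labels do not say whether replicates were separate cultures, and the replicate spread behind every p-value may be technical.

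Gene-assigned reads numbered 26633433 to 31704616 in the LINE1 ASO libraries and 19954026 to 29092272 in the RC ASO libraries. From these, TMM scaling gave effective library sizes, and levels below are counts scaled by them (CPM). The stem cell markers Pou5f1, Nanog, Sox2, Zfp42 and Esrrb summed to 2089 to 2387 CPM in LINE1 ASO libraries and to 2745 to 2949 CPM in RC ASO libraries. The 4 markers of 2-cell-like cells summed to 47.3 to 122 CPM in LINE1 ASO libraries, against 3.85 to 5.22 CPM in RC ASO libraries. Of the first list 1 marker passed the test below, Pou5f1, which was lower with the LINE1 ASO, and of the second all 4, which were higher. Markers of primitive endoderm summed to 18.3 to 22.8 CPM in LINE1 ASO libraries and 14.7 to 16.6 CPM in RC ASO libraries, with 1 of 5 higher. Trophectoderm markers summed to 202 to 246 CPM with the LINE1 ASO and 194 to 231 CPM with the RC ASO, and fibroblast markers to 31.2 to 43.8 CPM with the LINE1 ASO and 37.02 to 50.8 CPM with the RC ASO. No list was at 0. Their part in the repeat results was not tested. In bulk RNA, fewer cells of a type and less RNA per cell cannot be told apart.

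One library stood apart in the repeat table. LINE1 ASO replicate 2 held 50380 CPM of repeat reads, while LINE1 ASO replicates 1 and 3 held 75235 and 71154 and the RC ASO libraries 65029 to 82102. Of 749 repeats with at least 10 reads in each of the other 5 libraries, 64 (8.54%) were below 50% of the lowest of those 5 in LINE1 ASO replicate 2. The same count was 0 to 2 for each of the other 5 libraries. In the gene table of LINE1 ASO replicate 2, 6 of 13629 genes were that low, and the median gene stood at 101% of the median of the other 5 libraries. An example outside the DNA transposons, picked after its values were seen, is the tRNA-Leu-TTA(m) name, with 0 reads in LINE1 ASO replicate 2 and 589 to 1097 reads in the others. The cause of this loss was not tested. Fold changes of the names in the plot of both fits are therefore given with all 6 libraries and without LINE1 ASO replicate 2, there or in the text.

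The summed DNA transposon reads were nearly level across the other 5 libraries. They amounted to 549.8, 371 and 559 CPM in LINE1 ASO replicates 1, 2 and 3 and to 571, 567 and 571 CPM in the RC ASO libraries. The arm means were 493 ± 106.1 CPM with the LINE1 ASO and 569.7 ± 2.53 CPM with the RC ASO (SD, n = 3 each), a log2 ratio of -0.21. Replicate 2 was the low library of its arm, and the other 2 lay just below the RC ASO range. Without it the LINE1 ASO mean was 554 CPM and the log2 ratio -0.04. The small remaining difference turned with the scaling. On unscaled gene totals the libraries stood at 563, 385 and 571 CPM with the LINE1 ASO and 549.8, 562 and 550.0 with the RC ASO, a log2 ratio of 0.03 without replicate 2. As a share of all repeat reads they made up 0.731%, 0.735% and 0.785% with the LINE1 ASO and 0.696%, 0.872% and 0.793% with the RC ASO, so that LINE1 ASO replicate 2 lay inside the range of the others. No p is given for these sums, since the names were proposed with earlier results known. Over the 5 libraries without LINE1 ASO replicate 2 the coefficient of variation of the sum was 1.64%. It was 3.15% for 79 shorter DNA transposon names without these stems and 8.54% for all repeat reads. The summed L1Md names, the young LINE1 subfamilies, had 24.3%. Among these 5 libraries L1Md was lowest in RC ASO replicate 2, at 3931 CPM, and at 6586 to 7891 CPM in the rest.

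**Figure D1:**
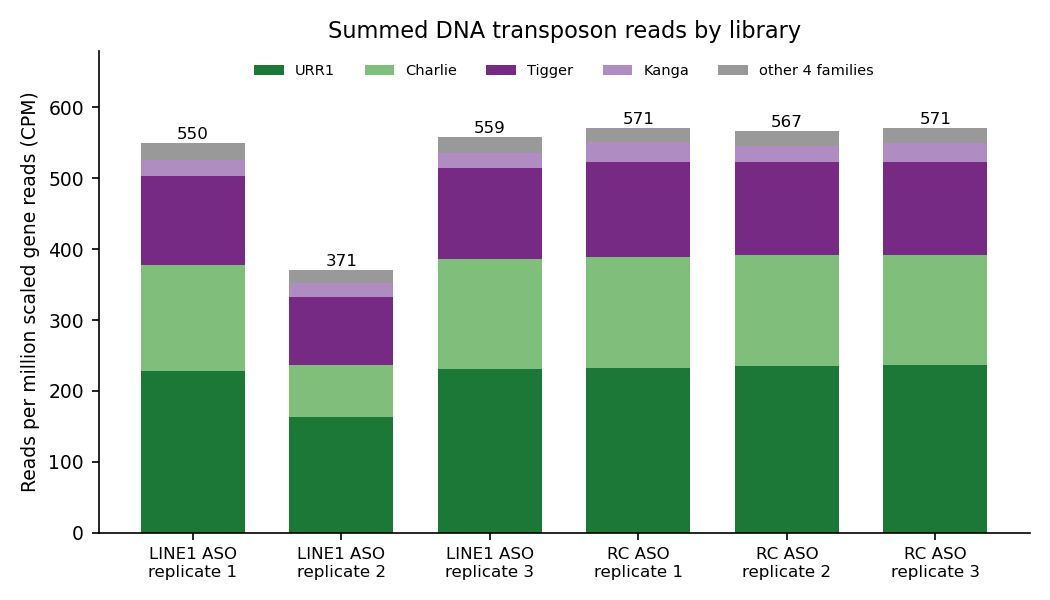
Reads of all 71 DNA transposon names per library, in CPM of scaled gene reads, stacked by name stem. LINE1 ASO replicate 2 stands at 371 CPM, and the other 5 libraries between 549.8 and 571 CPM.

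Both larger superfamilies were lowest in LINE1 ASO replicate 2, at 62.4% (hAT) and 74.8% (Tc1/mariner) of the median of the other 5 libraries. The hAT names summed to 401, 255 and 408 CPM in LINE1 ASO replicates 1, 2 and 3, against 408, 412 and 413 CPM in the RC ASO libraries. The Tc1/mariner names summed to 148, 115.2 and 149 CPM with the LINE1 ASO and to 162, 154 and 158 CPM with the RC ASO. The log2 ratios were -0.21 for hAT and -0.20 for Tc1/mariner with 6 libraries, and -0.02 and -0.09 without LINE1 ASO replicate 2. Without that library the arms stayed apart for Tc1/mariner, lower with the LINE1 ASO, and overlapped narrowly for hAT. Looper, the only piggyBac name, had 33, 10 and 18 reads with the LINE1 ASO and 9, 12 and 20 with the RC ASO, too few to place it. By stem, log2 ratios without that library were -0.03 for URR1, -0.04 for Charlie, -0.07 for Tigger and -0.18 for Kanga. The smaller stems stood at -0.06 for Arthur, 0.10 for Cheshire and 0.23 for Zaphod.

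Abundance was concentrated in a few names. The pair URR1A and URR1B took 41.7% of all DNA transposon reads and the 10 most abundant names 74.1%. Of the 71 names, 49 passed edgeR's filter on low counts and were tested, and these held 99.3% of the reads. They ranged from 0.329 to 122 mean CPM with a median of 3.11. The 22 names left out had at most 17 reads in any library. Cheshire_Mars had 0 reads in all 6 libraries, which allows up to 0.0924 to 0.156 CPM per library by counting error alone (3 reads).

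Among the abundant names, URR1B was level outside the library that stood apart. It had 129, 81.9 and 128 CPM in the LINE1 ASO libraries and 132, 128 and 131 CPM in the RC ASO libraries. URR1A had 99.6, 81.6 and 103.4 CPM with the LINE1 ASO, against 100.8, 107.1 and 105.1 CPM with the RC ASO. Both arms overlapped for each name once LINE1 ASO replicate 2 was left out, with log2 fold changes of -0.05 ± 0.07 for URR1B and -0.08 ± 0.08 for URR1A (SE). Among the 12 tested names with a mean of at least 10 CPM, the highest of the other 5 libraries was a median of 1.23 times the lowest.

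The loss in LINE1 ASO replicate 2 was uneven between names. Charlie6 had 16 reads there (95% Poisson interval 9.15 to 26.0, counting error only), where the median level of the other 5 libraries corresponds to 1202 reads. In CPM, Charlie6 stood at 39.5, 0.515 and 37.0 with the LINE1 ASO and at 40.9, 37.7 and 38.7 with the RC ASO. It was thus level in 5 libraries and at 1.33% of their median in the sixth. Charlie8 had 25.5, 4.28 and 25.001 CPM with the LINE1 ASO and 24.9, 17.9 and 23.1 CPM with the RC ASO. Its reads there numbered 133, against 773 at the median of the other 5. Of 42 DNA transposon names with at least 10 reads in each other library, 7 (16.7%) were below 50% of the lowest of them, against the 8.54% of all repeats above. These 7 were Charlie6, Charlie8, Charlie9, Charlie12, Charlie25, Tigger14a and Tigger15a. In each of the other 5 libraries the count was 0.

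Other names kept their level in the same library. Over the 49 tested names, LINE1 ASO replicate 2 stood at a median of 77.8% of the median of the other 5 libraries, with quartiles of 59.1% and 94.2% and a range of 1.33% to 142%. Over the 757 other tested repeats the median was 76.4%, with quartiles of 62.4% and 89.8%. Charlie24 was at 96.02%, Zaphod2 at 94.4%, Tigger6a at 94.2% and Tigger16a at 93.8%, while Tigger12c (133%) and Arthur1B (142%) were above that median. Arthur1B was still below RC ASO replicate 2, at 2.22 against 2.63 CPM. Tigger12c was at 2.22 CPM in both libraries. A single scaling of the repeat column would therefore not bring all names of that library to the level of the others.

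**Figure D2:**
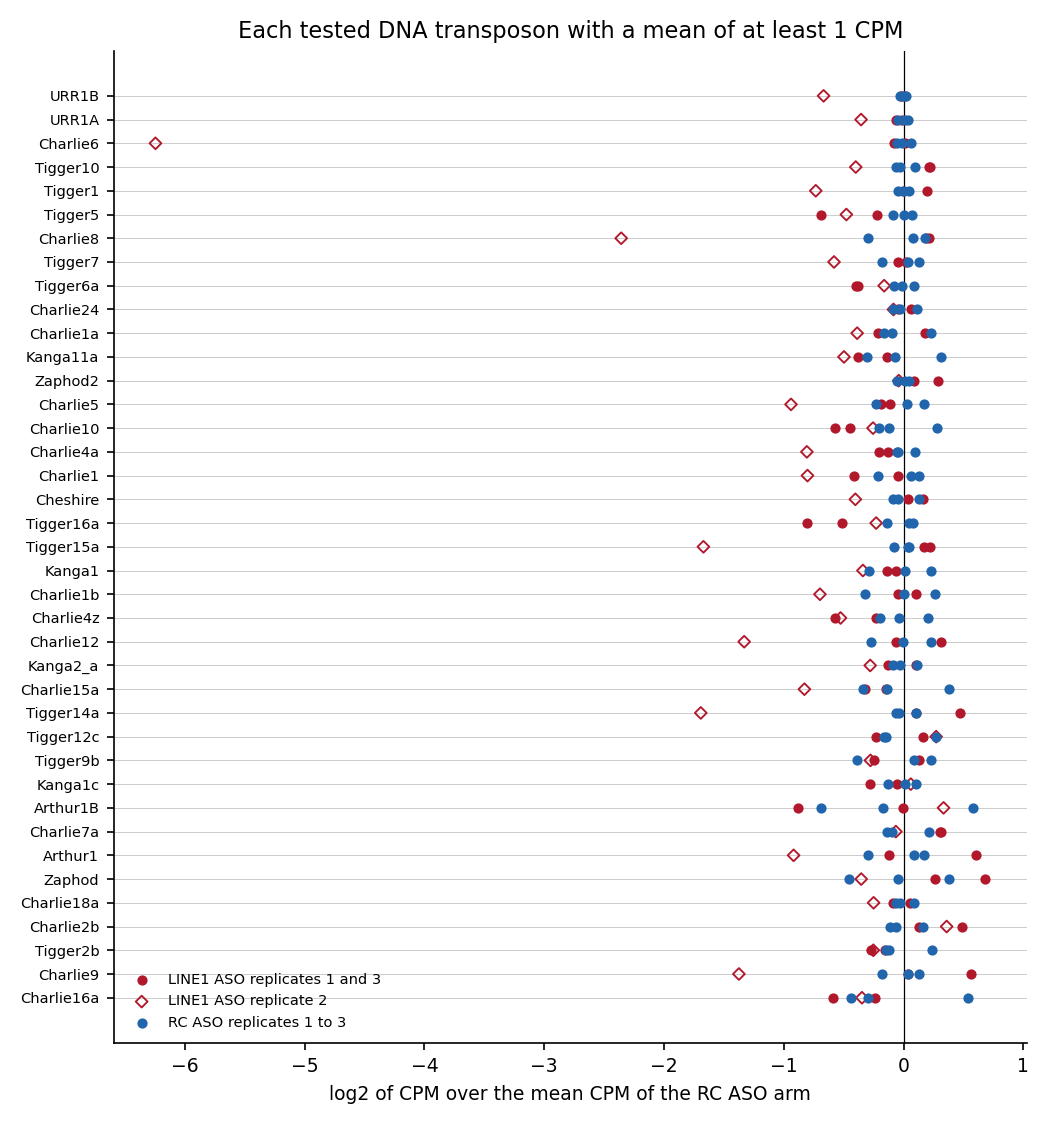
Each tested DNA transposon name with a mean of at least 1 CPM, as log2 of its CPM in a library over the mean CPM of the RC ASO arm. Open diamonds are LINE1 ASO replicate 2, which lies far left for Charlie6 and Charlie8 and near 0 for Charlie24 and Zaphod2.

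Single names were then compared between the arms with edgeR's quasi-likelihood F test over all 806 repeats tested. With 6 libraries 0 of 49 DNA transposon names passed at a Benjamini-Hochberg adjusted p under 0.05, as did 0% of all repeats tested, and the lowest adjusted p was 0.555 (edgeR). An unadjusted edgeR p under 0.05 was found for 4 names (8.16%), close to the 6.33% of all repeats, and DESeq2 called 0 names. The arms did not overlap for 9 names (18.4%), against 17.5% of all repeats. The median log2 fold change was -0.12 over the 49 names, against -0.09 over all tested repeats. Of the 49 names 38 were below 0, as were 516 of all 806 repeats.

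Without LINE1 ASO replicate 2 the spread shrank and 2 of 52 tested names (3.85%) passed, against 6.2% of all repeats. Both were lower with the LINE1 ASO, a direction taken by 0.729% of all repeats as calls. The median log2 fold change was -0.05 over the 52 names and 0.00 over all repeats, with 32 of 52 names and 402 of 823 repeats below 0. An unadjusted edgeR p under 0.05 was found for 13.5% of the names and 19.6% of all repeats. The arms did not overlap for 28.8% of the names and 37.3% of all repeats. The median standard error of a name was 0.198 in this fit and 0.234 with 6 libraries.

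The 2 called names belong to the Tigger group, relatives of the pogo transposase. Tigger16a had 3.79, 5.64 and 4.63 CPM in LINE1 ASO replicates 1, 2 and 3, against 6.82, 6.01 and 6.995 CPM in the RC ASO libraries. All LINE1 ASO libraries lay below all RC ASO libraries, with replicate 2 nearest to them. The log2 fold change was -0.50 ± 0.19 (SE) with 6 libraries (edgeR adjusted p = 0.655) and -0.69 ± 0.15 without LINE1 ASO replicate 2 (edgeR adjusted p = 0.0205; DESeq2 adjusted p = 0.0136). Tigger6a had 13.5, 15.8 and 13.6 CPM with the LINE1 ASO and 18.8, 16.8 and 17.5 CPM with the RC ASO, again with no overlap. Its log2 fold change was -0.31 ± 0.15 with 6 libraries (edgeR adjusted p = 0.798) and -0.42 ± 0.11 without that library (edgeR adjusted p = 0.0487; DESeq2 adjusted p = 0.0449). On unscaled gene totals Tigger6a did not pass without that library (edgeR adjusted p = 0.100), whereas Tigger16a did (0.0245). With RC ASO replicate 1 left out as well neither passed (edgeR adjusted p = 0.0622 for Tigger16a and 0.134 for Tigger6a). With RC ASO replicate 2 left out as well both passed (edgeR adjusted p = 0.0047 for Tigger16a and 0.0200 for Tigger6a). With RC ASO replicate 3 left out as well Tigger16a passed and Tigger6a did not (edgeR adjusted p = 0.0355 and 0.0871). With LINE1 ASO replicate 1 or 3 left out as well, a single LINE1 ASO library remained. The log2 fold changes were then -0.55 or -0.84 for Tigger16a and -0.41 or -0.43 for Tigger6a. In one table with the genes and no LINE1 ASO replicate 2, neither passed (edgeR adjusted p = 0.0687 for Tigger16a and 0.0821 for Tigger6a).

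Other Tigger names went different ways. Tigger5 had 16.6, 19.2 and 23.0 CPM with the LINE1 ASO and 26.9, 28.2 and 25.2 CPM with the RC ASO, and the arms did not overlap. With repeats fitted apart from the genes, its log2 fold change of -0.45 ± 0.17 did not pass with 6 libraries (edgeR adjusted p = 0.625). Without LINE1 ASO replicate 2 the same fit gave -0.47 ± 0.14, which did not pass either (edgeR adjusted p = 0.0737). Tigger10 had 28.5, 18.5 and 28.2 CPM with the LINE1 ASO, against 26.0, 23.3 and 23.9 CPM with the RC ASO, so that LINE1 ASO replicates 1 and 3 lay above the RC ASO range and replicate 2 below it. Tigger1 had 27.8, 14.6 and 24.2 CPM with the LINE1 ASO, against 25.045, 24.3 and 23.5 CPM with the RC ASO. Tigger7 had 18.2, 12.6 and 19.0 CPM with the LINE1 ASO and 16.6, 19.3 and 20.6 CPM with the RC ASO. For both, the arms overlapped without LINE1 ASO replicate 2, at log2 fold changes of 0.06 ± 0.10 for Tigger1 and -0.05 ± 0.12 for Tigger7.

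The largest values above 0 came from weakly read names, and none passed with 6 libraries when repeats were fitted apart from the genes. Tigger13a had 29, 29 and 25 reads with the LINE1 ASO and 5, 8 and 19 reads with the RC ASO. Its log2 fold change was 1.09 ± 0.37 (edgeR adjusted p = 0.555). Charlie7 had 21, 16 and 20 reads with the LINE1 ASO, against 8, 10 and 11 with the RC ASO, a log2 fold change of 0.67 ± 0.30 with 6 libraries. Charlie2b had 42, 47 and 45 reads with the LINE1 ASO and 21, 30 and 37 with the RC ASO, at 0.32 ± 0.22 with 6 libraries. Without LINE1 ASO replicate 2 the log2 fold changes were 1.03 for Tigger13a, 0.77 for Charlie7 and 0.26 for Charlie2b, and none passed. LINE1 ASO replicate 2 was below every other library for none of these 3 names, and the arms did not overlap for Tigger13a and Charlie7. At the other end, Kanga1d had a log2 fold change of -0.62 ± 0.43, or -0.46 without LINE1 ASO replicate 2, from 8, 6 and 11 reads with the LINE1 ASO and 5, 14 and 13 with the RC ASO.

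With repeats fitted apart from the genes, the remaining stems gave no call for their most abundant name. Kanga11a had 13.4, 10.4 and 11.3 CPM with the LINE1 ASO and 18.2, 11.9 and 14.0 CPM with the RC ASO, at -0.33 ± 0.20 with 6 libraries (edgeR adjusted p = 0.838) and -0.28 without LINE1 ASO replicate 2. Its arms overlapped only through RC ASO replicate 2. Zaphod2 had 11.5, 9.15 and 9.99 CPM with the LINE1 ASO, against 9.48, 9.69 and 9.07 CPM with the RC ASO. Cheshire had 6.41, 4.74 and 7.01 CPM with the LINE1 ASO and 5.88, 6.05 and 6.85 CPM with the RC ASO. Both names overlapped between the arms with 6 libraries, and Zaphod2 did not overlap without LINE1 ASO replicate 2, at 0.16 ± 0.12. Arthur1B followed the replicate number, with 31, 69 and 48 reads with the LINE1 ASO and 21, 70 and 44 with the RC ASO, at -0.12 with 6 libraries and -0.47 without LINE1 ASO replicate 2.

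**Figure D3:**
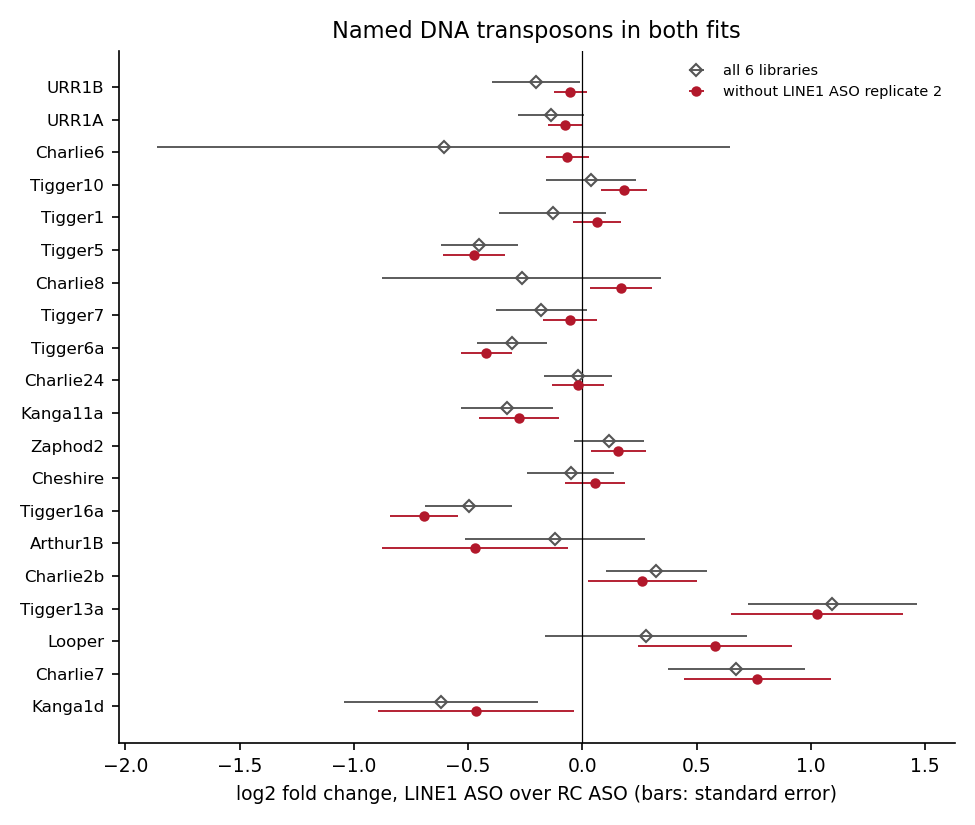
Log2 fold changes of the 20 named DNA transposons, LINE1 ASO over RC ASO, with standard errors, with all 6 libraries and without LINE1 ASO replicate 2. The bar of Charlie6 spans over 2 log2 units with 6 libraries and shrinks without that library, while Tigger16a and Tigger6a lie left of 0 in both.

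The replicate numbers were taken to pair the libraries, but the fits leave this pairing out unless a block is named. Without LINE1 ASO replicate 2 alone, RC ASO replicate 2 also has no partner. The fit with the number as a block changed the DNA transposon calls only when repeats and genes shared 1 table. Within the repeat table the block gave 0 called names. In 1 table with the genes it gave 8 of 49 names (16.3%), against 12.8% of all repeats (edgeR). They were Tigger13a, which was higher with the LINE1 ASO, and Tigger5, Tigger6a, Tigger16a, Charlie1, Charlie4z, Charlie10 and Kanga11a, which were lower. All 6 libraries, LINE1 ASO replicate 2 included, enter that fit.

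Shorter DNA transposons without these stems, such as the MER names, served as a comparison list of 79 names, of which 58 were tested. With 6 libraries 0 passed by edgeR and 0 by DESeq2, against 0% and 0.993% of all repeats. Of the 58, 2 had an unadjusted edgeR p under 0.05, against 6.33% of all repeats. The median log2 fold change of the 58 was -0.13, or -0.05 without LINE1 ASO replicate 2. MER5A, a short non-autonomous hAT element, had 42.6, 29.5 and 47.3 CPM with the LINE1 ASO and 43.2, 43.7 and 48.1 CPM with the RC ASO. MER20, another hAT element, had 39.0, 21.9 and 41.5 CPM with the LINE1 ASO, against 43.8, 44.01 and 45.8 CPM with the RC ASO. MER58B had 31.6, 28.5 and 35.7 CPM with the LINE1 ASO and 34.3, 38.0 and 35.0 CPM with the RC ASO. In each of these names LINE1 ASO replicate 2 was again the lowest library. The log2 fold changes with 6 libraries were -0.18 for MER5A, -0.38 for MER20 and -0.16 for MER58B. Without that library they were -0.04, -0.18 and -0.12. Without LINE1 ASO replicate 2, 1 of the 58 passed, against 6.2% of all repeats (edgeR). It was Ricksha_c, which had 37.1, 0.0644 and 35.1 CPM with the LINE1 ASO and 23.1, 24.0 and 22.9 CPM with the RC ASO. Its log2 fold change was 0.59 without that library (edgeR adjusted p = 0.00401) and 0.05 ± 1.46 with it.

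The immobile set was planned as a second denominator, and stood at 65.4% of the median of the other 5 libraries in LINE1 ASO replicate 2. Retrotransposon reads were therefore also expressed per 1000 DNA transposon reads of the same library. MERVL, the retrovirus active in the 2-cell embryo, had 7751, 4112 and 4179 such units with the LINE1 ASO (MERVL-int and MT2_Mm) and 908, 723 and 929.7 with the RC ASO. The log2 ratio of arm means was 2.65 on DNA transposon reads and 2.48 on gene reads, and the arms were apart on both scales. Without LINE1 ASO replicate 2 it was 2.80 on DNA transposon reads and 2.76 on gene reads. IAP, the intracisternal A particle, had 1788, 1775.5 and 1614.5 units with the LINE1 ASO and 1274.5, 1307.5 and 1266 with the RC ASO. On gene reads the 16 IAP names had 983, 658 and 902 CPM with the LINE1 ASO, against 728, 741 and 723 CPM with the RC ASO. LINE1 ASO replicate 2 lay below the RC ASO range on gene reads and above it on DNA transposon reads. The IAP log2 ratio was 0.43 on DNA transposon reads and 0.21 on gene reads with 6 libraries, and 0.41 and 0.37 on the same scales without LINE1 ASO replicate 2.

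The SINE names of B1 and B2, short elements that borrow LINE1 enzymes to move, showed the same switch. They had 17479, 18565 and 16435 units with the LINE1 ASO and 13295, 12675 and 13148 with the RC ASO. On gene reads they had 9609, 6879 and 9180 CPM with the LINE1 ASO, against 7595, 7184 and 7509 CPM with the RC ASO. Their log2 ratio was 0.42 on DNA transposon reads and 0.20 on gene reads with 6 libraries, and 0.38 and 0.34 on the same scales without LINE1 ASO replicate 2. The L1Md names had 13134, 8839.9 and 11790 units with the LINE1 ASO and 13813, 6936 and 13624 with the RC ASO. On gene reads they had 7220.3, 3275 and 6586 CPM with the LINE1 ASO and 7891, 3931 and 7780.4 CPM with the RC ASO. The arms overlapped on both scales through RC ASO replicate 2, and replicate 2 was the lowest library of either arm. Within replicate numbers 1, 2 and 3 the L1Md log2 ratios on gene reads were -0.13, -0.26 and -0.24, lower with the LINE1 ASO in all 3 pairs. On DNA transposon reads they were -0.07, 0.35 and -0.21, so that number 2 went the other way. The log2 ratio of arm means was -0.20 on gene reads and -0.03 on DNA transposon reads with 6 libraries. Without LINE1 ASO replicate 2 alone it turned to 0.08 and 0.12, with the low RC ASO replicate 2 still in. These ratios use a sum over the names as denominator and were not tested. Since the loss in LINE1 ASO replicate 2 differed between names, the denominator does not restore any single repeat there.

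**Figure D4:**
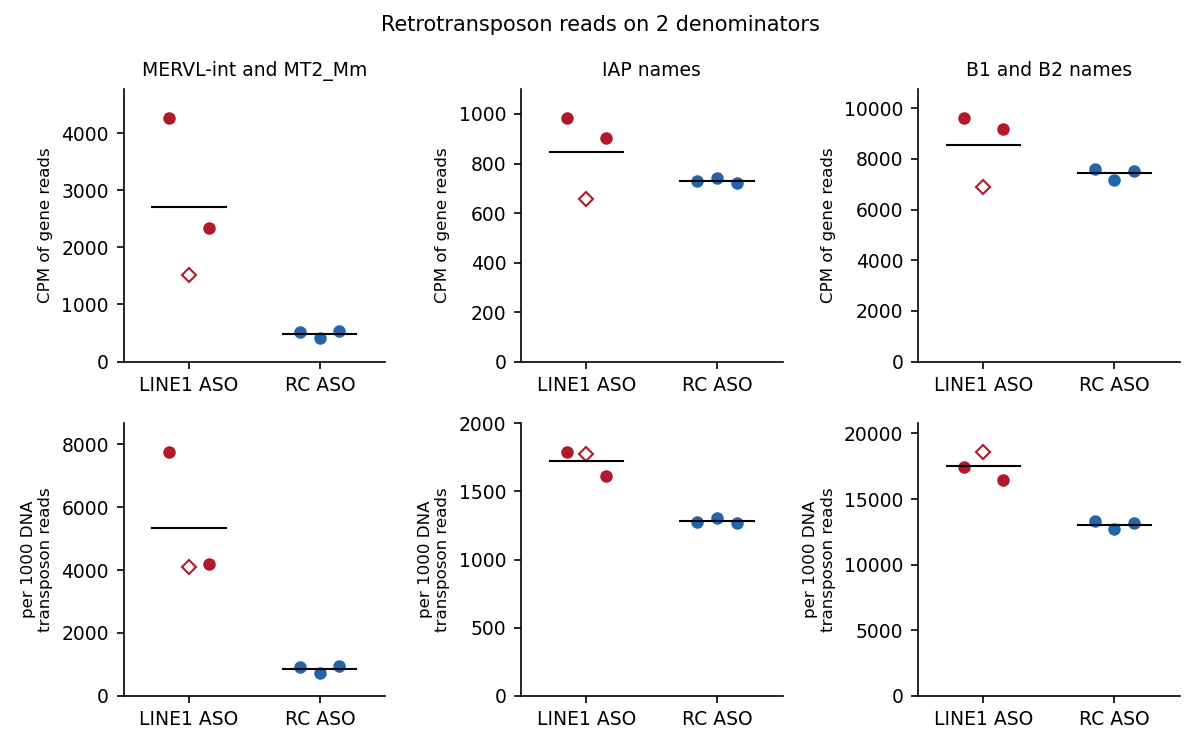
MERVL, IAP and B1 with B2 reads per library in CPM of gene reads (top) and per 1000 DNA transposon reads (bottom), with arm means as lines. LINE1 ASO replicate 2, the open diamond, lies below the RC ASO libraries for IAP and for B1 with B2 in the top row and above them in the bottom row.

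Several mouse genes descend from DNA transposases and now serve the host in other roles. Of 19 such genes listed, 18 were in the gene table and 16 were tested. With the LINE1 ASO 1 of the 16 (6.25%) passed, near the 6.11% of all 14725 genes tested (edgeR). It was Pgbd5, of the piggyBac transposase family, which had 7.52, 5.32 and 7.05 CPM in LINE1 ASO libraries and 1.67, 1.73 and 2.36 CPM in RC ASO libraries. The arms did not overlap. Pgbd5 rose 3.43-fold, with a log2 fold change of 1.78 ± 0.22 (SE, edgeR adjusted p = 0.00615), and passed with each library left out in turn (adjusted p at most 0.0404).

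Genes related to the Tigger transposase did not pass. Pogz, a chromatin protein with a pogo-like domain, had 154, 140.0 and 152 CPM with the LINE1 ASO and 133, 120.5 and 130.1 CPM with the RC ASO. Its arms did not overlap, at a log2 fold change of 0.22 ± 0.07 (edgeR adjusted p = 0.128). With the replicate number as a block it passed (edgeR adjusted p = 0.00265). Tigd2 stood at 0.19 ± 0.12 and Cenpb, which binds centromeric repeats, at 0.11 ± 0.20. Among the hAT-derived genes, Zbed3 had 15.9, 13.8 and 16.6 CPM with the LINE1 ASO and 21.3, 16.9 and 20.6 CPM with the RC ASO. Its log2 fold change of -0.35 ± 0.13 did not pass without the block (edgeR adjusted p = 0.170) and passed with it (0.00579). With the block 33.7% of all genes were called. Gtf2ird2, which carries a domain derived from Charlie8, had 6.56, 3.93 and 6.57 CPM with the LINE1 ASO and 4.43, 3.64 and 5.78 CPM with the RC ASO. In LINE1 ASO replicate 2 it stood at 68.0% of the median of the other 5 libraries, against 17.2% for the Charlie8 name. RC ASO replicate 2 was lower still for Gtf2ird2.

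**Figure D5:**
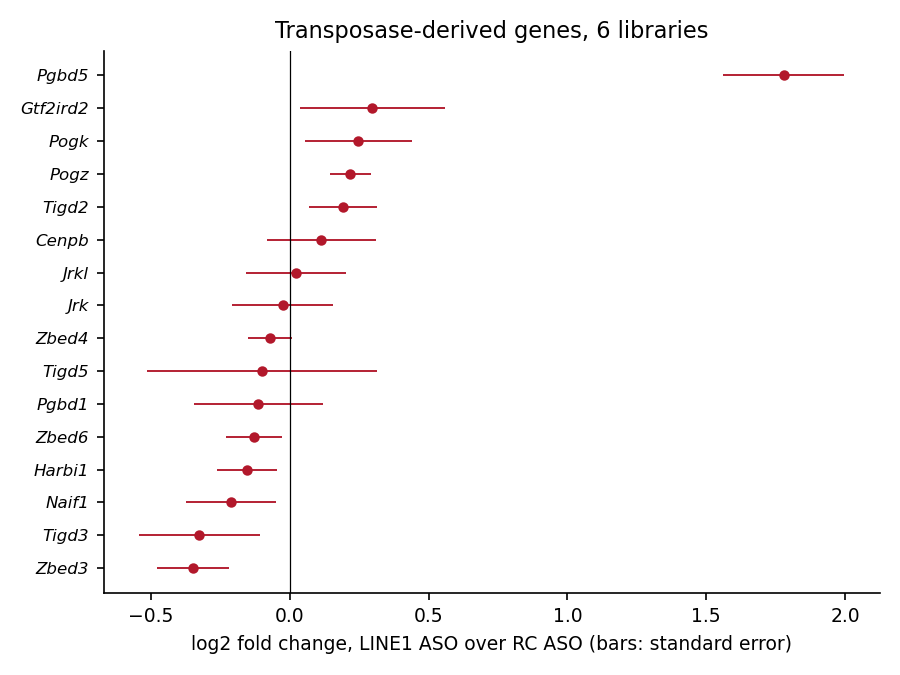
Log2 fold changes of the 16 tested transposase-derived genes, LINE1 ASO over RC ASO, with standard errors and all 6 libraries. Pgbd5 stands at 1.78, and the other 15 lie between -0.35 and 0.30.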

How the data were processed

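The deposited files hold raw counts by the authors, 1 table for genes by symbol and 1 for repeats by name, with a column per library. The submitters' processing notes list mm9 and, without their roles, HTSeq 0.6.1p1, DESeq2 1.12.3, TopHat2 2.0.9 and R 3.3.0. The library kit was directional per the labels' protocols. How counting used strand, which repeat annotation was used and how reads matching several copies were treated is not stated there, so related names could share or lose reads. Depths are in the report.

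Counts were analysed in R 4.3.3 with edgeR 4.0.16, using filterByExpr (minimum count 10, total 15), gene-table totals with TMM factors for both tables, robust quasi-likelihood fits, and Benjamini-Hochberg adjustment over all features kept, called under 0.05. Standard errors are the log2 fold change over the square root of F. Fits without a library re-estimated the factors, while CPM and sums kept those of 6 libraries. Code was tested on simulated data. Alternatives were DESeq2 1.42.0, other scalings and filters, the replicate block and left-out libraries.

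The names described are the 10 most abundant, the 3 most extreme each way, the top name of each stem, and every call. Genes named are the calls and those of smallest p. Charlie8-related Gtf2ird2, Cenpb and the names that lost most reads were added after their values were seen. Names and lists were chosen with earlier results of these data known. Replicate numbers were taken to pair libraries because deviations from the arm means over 14725 genes correlated at 0.436, 0.659 and 0.394 within numbers. Between unlike numbers the correlations were -0.475 to 0.220. Deviations from an arm mean cancel within the arm, so these values are not independent of those within numbers. The labels do not state a pairing. Repeat sequences were not used here.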

Additional observations from a re-analysis of the deposited data

How the results depend on the processing

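With 6 libraries, DNA transposon calls were 0 under RLE factors, library totals, repeat-table scaling, DESeq2, other filters and the replicate block, and 8 when the block was fitted in 1 table with the genes, which called 12.8% of all repeats. The share of all repeats called was 1.118% with repeat-table scaling, 0.993% with DESeq2, 0.0884% with no count filter, 0.744% in 1 table and 0% with the replicate block. Without both replicate 2 libraries 2 names and 7.15% of repeats were called. With single libraries, or LINE1 ASO replicate 2 and another, left out, called names ranged from 0 to 3 and called repeats from 0% to 7.15%. Settings combined without LINE1 ASO replicate 2 were chosen after seeing the data. There DESeq2 called 2 names and 4.74% of repeats, library totals 1 and 10.2%, repeat-table scaling 2 and 5.96%, and a joint fit with the genes 0 and 3.28%. The cause of these differences was not tested. Of the 16 transposase-derived genes, 2 were called with library totals (6.99% of all genes), 3 with the replicate block (33.7% of all genes), 3 without both replicate 2 libraries (20.5% of all genes), and 1 to 2 with single libraries left out (1.08% to 10.1% of all genes).

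The summed log2 ratio kept its sign, from -0.31 to -0.04, under the alternatives run one at a time, but was 0.03 with library totals and LINE1 ASO replicate 2 left out together. Several uncalled names changed sign, also some that were not near 0 with 6 libraries, such as Charlie6 at -0.61 and Charlie8 at -0.27. With library totals Charlie24 stood at 0.062 and Cheshire at 0.029, and with repeat-table scaling at 0.078 and 0.023. Without both replicate 2 libraries Tigger1 stood at 0.10, Charlie8 at 0.074, Charlie24 at 0.0049 and Cheshire at 0.059. Without LINE1 ASO replicate 2, Tigger1, Charlie8 and Cheshire stood at 0.065, 0.17 and 0.059 with DESeq2, at 0.085, 0.19 and 0.077 with repeat-table scaling, and at 0.064, 0.17 and 0.061 when fitted together with the genes. With library totals and without that library, URR1B stood at 0.058, URR1A at 0.034, Charlie6 at 0.044, Tigger1 at 0.17, Charlie8 at 0.28, Tigger7 at 0.054, Charlie24 at 0.090 and Cheshire at 0.17. With 1 library, or LINE1 ASO replicate 2 and another, left out, the ranges were -0.083 to 0.24 for Tigger10, -0.34 to 0.15 for Tigger1, -0.61 to 0.28 for Charlie8, -0.31 to 0.015 for Tigger7, -0.086 to 0.048 for Charlie24, -0.19 to 0.13 for Cheshire, -0.96 to 0.27 for Arthur1B and -0.20 to 0.85 for Looper. Names under about 1 CPM rest on few reads per library, which limits what could be seen for them.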
